A study of Mus musculus with 15 samples.

Results

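The 9 genes described here encode transcription factors by which neuroendocrine lung cancers are recognised or sorted into subtypes: Insm1, Neurod1, Isl1, Prox1, Nkx2-1, Foxa1, Foxa2, Nfib and Pou2f3. They were taken by gene name from a matrix of 55359 genes, which listed all 9, and their levels were set side by side in 15 mouse RNA-seq samples. The 5 groups hold 3 samples each. 46LCNEC_cell is 1 adherent line made from a large cell neuroendocrine carcinoma (LCNEC) that arose after an adenovirus carrying Cre under the broadly active CMV promoter was given into the trachea. 57SCLC_cell is 1 line of floating aggregates from a small cell lung cancer (SCLC), at passage 11, made in the same way with Cre under the keratin 5 promoter, which is active in basal cells. 46LCNEC_allo and 57SCLC_allo are subcutaneous allografts of these lines in syngeneic mice with a working immune system, and Lung is the lung of littermates. All donors, recipients and lung donors were of the QKO strain, which is null for Rbl1 and carries floxed Rb1 and Trp53 alleles among others, and Cre acted only in the tumors. Ages were not given in the labels. The samples of a cell group are separate dishes or flasks of 1 line, so their spread is that of a culture, while each allograft is a tumor of its own. With 1 line for each tumor type, tumor type, line, promoter and growth form cannot be told apart.

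As background, these factors fall into 4 roles. Insm1, a zinc finger repressor, Neurod1, a basic helix-loop-helix activator, Isl1, a LIM homeodomain factor, and Prox1, a homeodomain factor, act in the differentiation of neuroendocrine and neuronal cells, and Prox1 also specifies lymphatic endothelium. Nkx2-1, the homeodomain factor that specifies lung and thyroid, and the forkhead pioneer factors Foxa1 and Foxa2 set epithelial identity in the airways and alveoli and drive surfactant and secretoglobin genes there. Nfib, a nuclear factor I protein, takes part in lung maturation and is amplified in some small cell tumors, and Pou2f3 is the master regulator of tuft cells and marks a tuft cell-like class of SCLC.

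The values are read counts per gene divided by a size factor of each sample, called normalized counts below. Reads counted per sample ranged from 9480244 to 44876572, the lowest in the 57SCLC allograft 275. Among the replicates, flask C of 57SCLC_cell stood apart from flasks A and B, and the 46LCNEC allografts also differed widely from each other, with a chi-square of their gene counts, divided by its degrees of freedom, of 92.61 to 133.263, against 126.74 and 143.536 for flask C and at most 43.829 for the other pairs. Some genes that nearly every cell uses, among them B2m, Cox4i1 and Hif1a, were listed at 0 in all 15 samples, so a 0 for a gene here is not evidence that the gene was silent, and the cause was not tested.

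The promoters of 4 members on which the results turn are shown for the reader who wants to see the letters behind the names. Foxa2, Prox1 and Nkx2-1 had their lowest levels together in the 46LCNEC allografts, while Foxa1 stayed at 678 to 1202 normalized counts. The windows are RefSeq sequences from the GRCm38.p6 table, 250 bases before to 50 bases after an annotated start, and each was found exactly once in GRCm39, the build of the deposited data. The table held 9 windows for 6 members, with none for Insm1, Pou2f3 and Nfib. Capitals mark every match, on either strand, to the E-box CANNTG that basic helix-loop-helix factors bind, the forkhead core TGTTTAC, the NKX2 core CTCAAG and the TATA box TATAAA. The E-box letters CAGATG were also searched as a case of CANNTG.
Nkx2-1, chr12:56583644-56583943, minus strand: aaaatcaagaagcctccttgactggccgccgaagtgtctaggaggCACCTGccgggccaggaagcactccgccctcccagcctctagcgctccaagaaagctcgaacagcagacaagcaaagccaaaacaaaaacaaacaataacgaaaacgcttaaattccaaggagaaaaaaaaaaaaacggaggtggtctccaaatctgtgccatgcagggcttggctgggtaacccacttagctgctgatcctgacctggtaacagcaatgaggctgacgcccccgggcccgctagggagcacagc
Foxa1, chr12:57592848-57593147, minus strand: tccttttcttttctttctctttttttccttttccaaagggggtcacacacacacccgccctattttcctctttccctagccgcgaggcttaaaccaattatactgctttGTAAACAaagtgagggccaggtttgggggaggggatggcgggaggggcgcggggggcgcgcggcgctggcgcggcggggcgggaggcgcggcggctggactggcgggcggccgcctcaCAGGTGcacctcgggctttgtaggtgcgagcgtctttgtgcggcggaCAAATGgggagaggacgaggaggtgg
Foxa2 upstream start, chr2:147888840-147889139, minus strand: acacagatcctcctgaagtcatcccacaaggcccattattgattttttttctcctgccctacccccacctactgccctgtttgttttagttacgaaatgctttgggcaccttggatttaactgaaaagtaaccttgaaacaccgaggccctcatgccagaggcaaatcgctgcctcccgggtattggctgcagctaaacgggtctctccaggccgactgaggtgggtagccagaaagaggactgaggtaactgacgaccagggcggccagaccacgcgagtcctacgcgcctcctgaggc
Foxa2 downstream start, chr2:147887335-147887634, minus strand: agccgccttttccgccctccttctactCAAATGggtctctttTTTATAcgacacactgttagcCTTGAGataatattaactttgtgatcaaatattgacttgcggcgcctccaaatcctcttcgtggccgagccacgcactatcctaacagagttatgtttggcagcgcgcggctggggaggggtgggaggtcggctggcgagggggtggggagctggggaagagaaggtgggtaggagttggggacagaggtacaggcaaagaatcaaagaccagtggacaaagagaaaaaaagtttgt
Prox1 upstream start, chr1:189902975-189903274, minus strand: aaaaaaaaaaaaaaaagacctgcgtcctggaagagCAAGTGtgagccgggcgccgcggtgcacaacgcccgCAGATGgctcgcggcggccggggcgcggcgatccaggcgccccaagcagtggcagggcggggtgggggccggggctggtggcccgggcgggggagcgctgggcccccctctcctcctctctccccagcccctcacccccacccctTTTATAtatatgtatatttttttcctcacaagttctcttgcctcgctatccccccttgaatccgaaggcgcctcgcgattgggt
The Nkx2-1 window held 1 E-box, at −205 from the start. The Foxa1 window held 2 E-boxes, at −23 and 24, and 1 match to the forkhead core at −141, a motif present in 3.65% of all 32851 promoters in the table. In the downstream Foxa2 window an E-box lay at −223, a TATA box at −208 and an NKX2 core at −187. The upstream Foxa2 window held none of these motifs, which says only that these letters are not in it. The upstream Prox1 window held E-boxes at −215 and −179, the latter with the letters CAGATG, and a TATA box at −34. Another window of Prox1, at chr1:189901663-189901962, and another of Foxa2, at chr2:147887819-147888118, held none of the motifs and are not shown. Over all promoters, CANNTG was present in 72.31%, CAGATG in 17.15%, CTCAAG in 15.9% and TATAAA in 13.62%. These matches only describe the windows, and binding was not measured.

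In the GRCm39 annotation Insm1, a gene of 1 exon, lies at chr2:146063841-146066940, 1.818 Mb from Foxa2 at chr2:147884797-147889005. Nkx2-1, at chr12:56578742-56583722, and Foxa1, at chr12:57587414-57593702, are 1.004 Mb apart. Prox1 lies at chr1:189850232-189904637, Nfib at chr4:82208410-82623987, Pou2f3 at chr9:43035228-43121666, Neurod1 at chr2:79282865-79287294 and Isl1 at chr13:116434817-116446235. The neighbours on chromosome 2 and on chromosome 12 did not share a pattern: Insm1 and Foxa2 differed most in 46LCNEC_cell, where Insm1 was at 2 to 11 reads and Foxa2 at 3682 normalized counts or more, and Nkx2-1 and Foxa1 differed in the 46LCNEC allografts.

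Insm1 separated the lines most. In 57SCLC_cell it stood at 39944, 36474 and 26639 normalized counts in flasks A, B and C, and in the 57SCLC allografts 275, 316 and 317 at 18147, 27716 and 20112. The 46LCNEC_cell samples held 10.3, 5.52 and 1.54 normalized counts, from 11, 5 and 2 reads. The 46LCNEC allografts 312, 319 and 321 held 1, 0 and 4 reads. The 3 lungs lay between the lines, at 26.2, 23.9 and 21.1 normalized counts. Every 57SCLC sample was therefore far above every lung, and every 46LCNEC sample below every lung. Cells and allografts of the same line overlapped, in 57SCLC as well as in 46LCNEC.

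Prox1 also had its highest group mean in 57SCLC_cell, followed by the 57SCLC allografts, and it split the 46LCNEC samples. It was at 10853, 11086 and 8833 normalized counts in 57SCLC_cell and at 6353, 8506 and 7810 in the 57SCLC allografts. In 46LCNEC_cell it stood at 258, 224 and 208, a range that overlapped the 211.5, 201.5 and 158 of the lungs. In the 46LCNEC allografts 7, 6 and 5 reads were left, which gave 9.3, 6.3 and 5.5 normalized counts. Those 3 tumors were thus below every other sample.

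Neurod1 was listed at 0 in all 15 samples. Isl1 was listed at 0 in 13 samples and had 3 and 2 reads in the lungs CT3 and CT4. For both genes no level, fold or limit is given because of the other genes listed at 0 noted above.

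Among the factors of epithelial identity, Nkx2-1 was high in all lungs, with 12946, 14051 and 16406 normalized counts. The 57SCLC samples were higher still, at 34869, 33031 and 29463 in cells and 24223, 28338 and 26185 in allografts. The 46LCNEC_cell samples were lower than the lungs, at 2883, 2421 and 2244. The 46LCNEC allografts were the lowest and the most spread, with 5.30 in tumor 312, 165 in tumor 319 and 761 in tumor 321. No group overlapped the next one in the order 57SCLC_cell, 57SCLC_allo, Lung, 46LCNEC_cell, 46LCNEC_allo.

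Foxa2 placed 46LCNEC_cell above the lungs. It was at 14331, 13938 and 11074 normalized counts in 57SCLC_cell and at 8424, 9848 and 8085 in the 57SCLC allografts. The 46LCNEC_cell samples had 4522, 3794 and 3682 and the lungs 2322, 2620 and 2675. In the 46LCNEC allografts 19.9, 4.2 and 159 were left in tumors 312, 319 and 321. The tumor with most Nkx2-1, 321, was also the one with most Foxa2, but the order of the other two differed between the genes, and no overlap between neighbouring groups was seen for Foxa2.

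Foxa1 had the narrowest span of group means of the 3 epithelial factors. It stood at 12415, 11442 and 8346 normalized counts in 57SCLC_cell, at 4934, 5034 and 5423 in the 57SCLC allografts and at 2852, 2636 and 2395 in the lungs. The 46LCNEC_cell samples had 1242, 999 and 922, and the 46LCNEC allografts 820, 1202 and 678. Cells and allografts of 46LCNEC overlapped, and no other neighbours in the order of group means did.

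Nfib varied little, with all group means within 2-fold of each other. Lungs had the highest mean, 13226 ± 2139.5 normalized counts (SD, n = 3), followed by the 57SCLC allografts with 11807 ± 698 and the 57SCLC flasks with 11220 ± 2059. The 46LCNEC dishes had 10510 ± 310.2 and the 46LCNEC allografts 9123 ± 1034. All neighbours in this order overlapped, but groups farther apart did not all overlap. Every 46LCNEC allograft, at 8144 to 10205, was below every 57SCLC allograft, at 11174 to 12556. Lungs, at 10877 to 15063, were above every 46LCNEC allograft and every 46LCNEC dish, the latter at 10161 to 10755. Pou2f3 was near the detection limit in all samples, between 2 and 18 reads. Groups next to each other in the order of means overlapped there as well, whereas the dishes of 46LCNEC, at 6.6 to 13.8 normalized counts, lay above the flasks of 57SCLC, at 3.3 to 5.4, without a test since the count filter was not reached. The same was seen for other genes of tuft cells in part only: Ptgs1 and Dclk1 stood at 1522 normalized counts or more in all 46LCNEC samples.

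**Figure D1:**
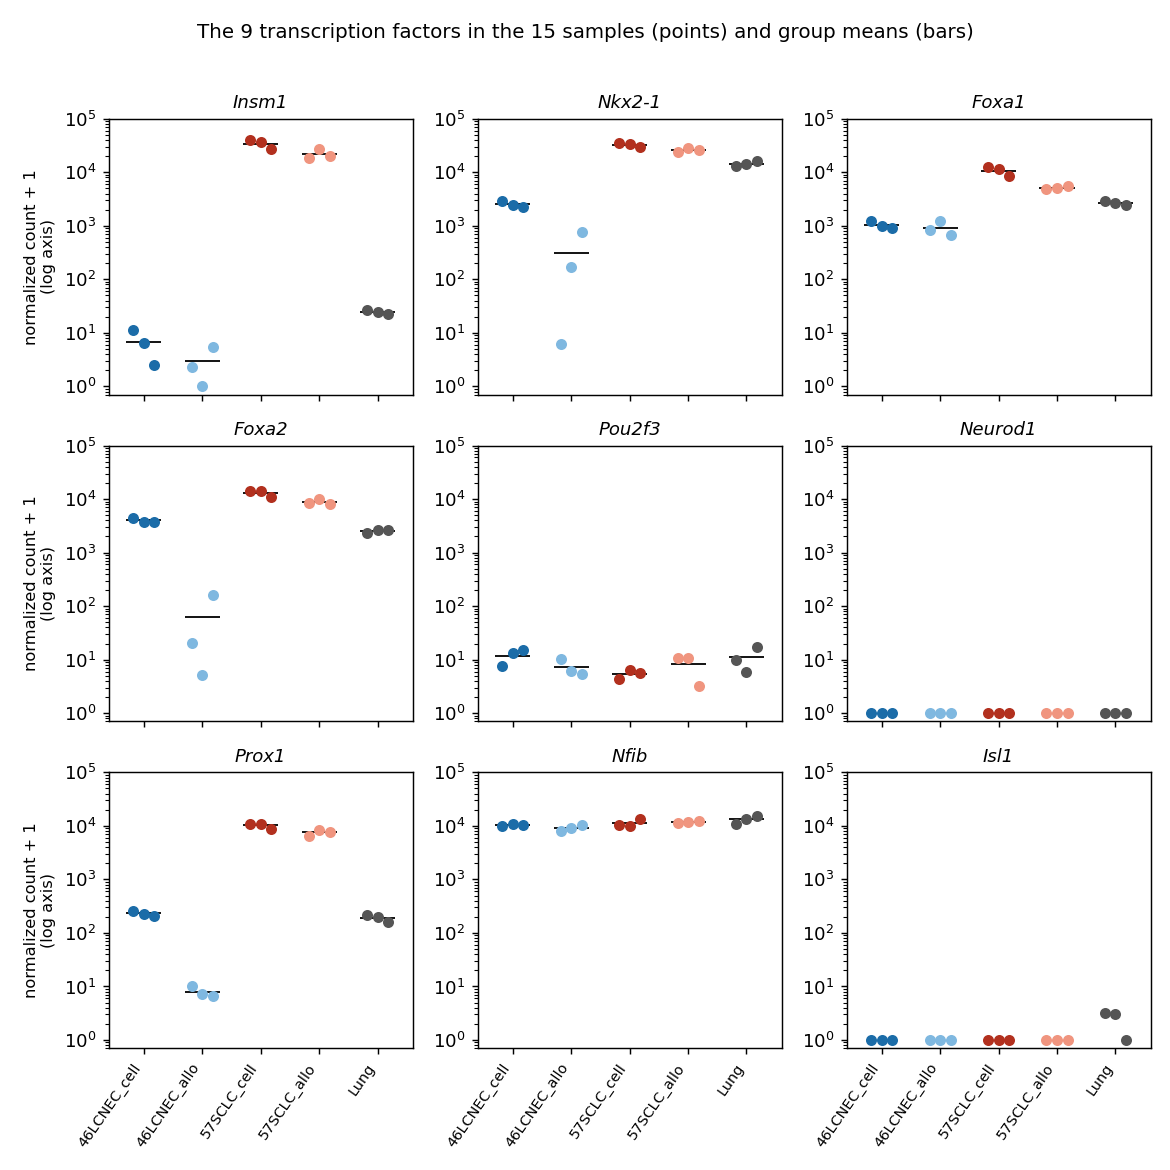
Normalized counts of the members in the 15 samples, as normalized count + 1 on a log axis, with 1 point for each sample, 3 in each of the 5 groups, and a line at the group mean (none for Neurod1 and Isl1). Insm1 and Prox1 are high in the 57SCLC samples, and Foxa2, Prox1 and Nkx2-1 are lowest in the 46LCNEC allografts. The group means of Nfib lie within 2-fold of each other.

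Levels of different genes can be compared only per length. Per kb of exon, Insm1 and Nkx2-1 led the members in 57SCLC_cell, with 11081 and 10693 normalized counts per kb, and only 37 and 39 of the 24578 genes with reads lay above them. With the longest transcript as length in place of all exons, Nkx2-1 came first with 11432 per kb. In the 57SCLC allografts Nkx2-1 came first by either length, at 8649 per kb against 7094 for Insm1. In 46LCNEC_cell the leading member was Foxa2 with 1177 per kb, before Nkx2-1 with 829. By the longest transcript Foxa2 still came first, at 1247 per kb, and Nfib, at 1137, stood before Nkx2-1, at 886. In the 46LCNEC allografts Nfib led with 556, and Foxa1, with 267.5, stood above Nkx2-1 with 102.3 and Foxa2 with 17.99.

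The first comparison asked how the lines differ in culture. Insm1, Prox1, Nkx2-1, Foxa1 and Foxa2 were higher in 57SCLC_cell than in 46LCNEC_cell, 5 of the 6 members with enough counts for the test and none lower. Calls needed a difference of 2-fold or more and a p, adjusted by Benjamini and Hochberg over all genes tested in limma, no higher than 0.01. By that rule 23.9% of all genes tested were higher and 22.2% lower. Insm1, at 1.54 to 10.3 normalized counts in 46LCNEC_cell, passed the count filter through 57SCLC_cell, which fixed its direction. Insm1 was higher by 12.53 ± 0.48 (SE, n = 3 and 3) on the log2(normalized count + 1) scale (adjusted p = 1.427e-07, limma), a value that rests on few reads in 46LCNEC and moved between 11.70 and 12.85 with pseudocounts of 5 and 0.1. Prox1 was higher by 5.47 ± 0.12 (adjusted p = 9.891e-09, limma), Nkx2-1 by 3.69 ± 0.11 (adjusted p = 4.444e-08, limma) and Foxa1 by 3.34 ± 0.17 (adjusted p = 6.246e-07, limma). The difference of Foxa2 was the smallest of the 5, 1.71 ± 0.13 (adjusted p = 5.6e-06, limma), and its call was lost when all 15 samples shared 1 estimate of spread (adjusted p = 0.06782, limma). Nfib differed by 0.08 (adjusted p = 0.5837, limma).

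The same 5 members were higher in 57SCLC than in 46LCNEC allografts, 5 of 6 tested, while 16.1% of all genes tested were higher and 14.2% lower. Insm1 and Prox1, under 10 normalized counts in every 46LCNEC allograft, passed the count filter through 57SCLC alone. Their direction was thus fixed by the filter. With scaling by library size alone, 3570 genes were higher and 1957 lower in this comparison, against 2821 and 2491 with the deposited scaling. Insm1 was higher by 13.18 ± 0.58 (SE, n = 3 and 3, adjusted p = 1.306e-05, limma), with 11.66 to 14.61 over the pseudocounts, and Prox1 by 9.89 ± 0.24 (adjusted p = 4.125e-06, limma). Foxa2 was higher by 8.40 ± 1.12 (adjusted p = 8.559e-04, limma) and Foxa1 by 2.55 ± 0.21 (adjusted p = 9.814e-05, limma). For Nkx2-1 the difference of 8.14 ± 1.58 (adjusted p = 4.573e-03, limma) had the widest error, as tumor 312 held 4 reads and tumor 321 held 688. The call of Nkx2-1 was lost in a test against 2-fold itself (adjusted p = 0.01158, limma), without tumor 319 (adjusted p = 0.01023, limma) or without any 1 of the 57SCLC allografts (adjusted p = 0.01827 to 0.02031, limma), and in the latter fits Insm1 and Prox1 no longer reached the count filter. Nfib did not pass, at 0.38 (adjusted p = 0.03445, limma).

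**Figure D2:**
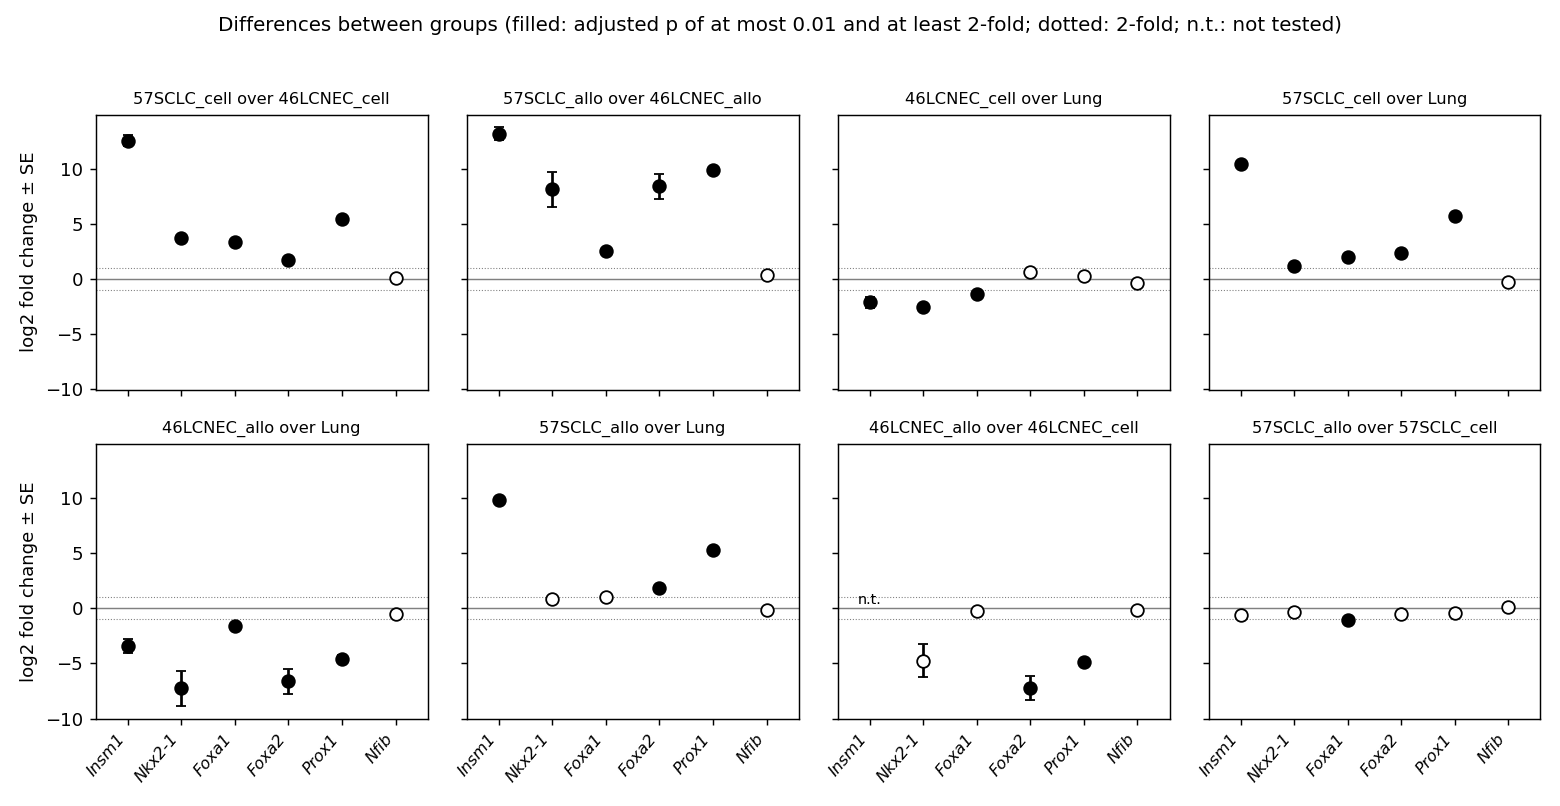
Differences of the tested members on the log2(normalized count + 1) scale in each comparison of 2 groups, with the standard error of the limma fit as bars, filled points for those called and dotted lines at 2-fold. The differences between the lines exceed that between allografts and cells of 57SCLC for Insm1, and the bars are widest for Nkx2-1 and Foxa2 wherever the 46LCNEC allografts enter.

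Lung served as the normal tissue for each tumor group, and the 4 comparisons below share its 3 samples. In 46LCNEC_cell, 3 of 7 tested members were lower than in Lung and none higher, while 35.0% of all genes tested were lower and 20.6% higher. Nkx2-1 had a difference of −2.52 ± 0.12 on the log2 scale (n = 3 and 3), Foxa1 one of −1.32 ± 0.12 and Insm1 one of −2.11 ± 0.50 (adjusted p = 3.481e-03, limma). The Insm1 call rests on 2 to 11 reads and was lost without the lung CT3 (adjusted p = 0.01257, limma) or with a pseudocount of 0.1 (adjusted p = 0.01048, limma). Insm1 also passed the count filter through Lung, so it could only be called lower. The call of Nkx2-1 was lost with all 15 samples in 1 model (adjusted p = 0.05087, limma), and those of Insm1 and Foxa1 in a test against 2-fold itself (adjusted p = 0.06033 and 0.02663, limma). Foxa2 had a difference of 0.65 (adjusted p = 1.779e-04, limma), which is under 2-fold, and Prox1, Pou2f3 and Nfib, at 0.28, 0.17 and −0.32, were not called.

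In 57SCLC_cell, 5 of 6 tested members were higher than in Lung and none lower, in a comparison where 21.1% of genes were higher and 32.7% lower. The differences were 10.42 ± 0.16 for Insm1, 5.75 ± 0.14 for Prox1, 2.36 ± 0.12 for Foxa2, 2.01 ± 0.15 for Foxa1 and 1.17 ± 0.12 for Nkx2-1 (n = 3 and 3). With all 15 samples in 1 model the calls of Nkx2-1 and Foxa2 were lost (adjusted p = 0.3493 and 0.01375, limma), and a test against 2-fold itself also ended that of Nkx2-1 (adjusted p = 0.2065, limma). By values, and without a test between genes, Insm1 and Prox1 stood farther from Lung than the 3 epithelial members.

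In the 57SCLC allografts 3 of 6 tested members were higher than in Lung, where 18.9% of genes were higher and 26.9% lower. They were Insm1 with 9.78 ± 0.17, Prox1 with 5.30 ± 0.15 and Foxa2 with 1.79 ± 0.10 (n = 3 and 3). Foxa1, with 0.97 (adjusted p = 2.223e-05, limma), and Nkx2-1, with 0.86 (adjusted p = 2.979e-04, limma), fell just short of 2-fold. Both passed when samples were scaled by library size alone, at 1.17 and 1.07. Foxa1 also passed with edgeR, at 1.04, and with DESeq2, at 1.02. With limma it passed with upper quartile scaling, at 1.02, with TMM scaling, at 1.01, and without lung CT3, at 1.03. The call of Foxa2 was lost with all 15 samples in 1 model (adjusted p = 0.05513, limma).

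In the 46LCNEC allografts 5 of 6 tested members were lower than in Lung, against 22.1% of genes lower and 13.4% higher. Nkx2-1 had a difference of −7.28 ± 1.60 (adjusted p = 7.381e-03, limma), Foxa2 of −6.61 ± 1.14 (adjusted p = 2.507e-03, limma), Prox1 of −4.59 ± 0.31 (adjusted p = 4.569e-05, limma), Insm1 of −3.40 ± 0.63 (adjusted p = 3.489e-03, limma) and Foxa1 of −1.58 ± 0.21 (adjusted p = 8.586e-04, limma). The call of Nkx2-1 was lost with edgeR on the recovered reads (−5.47, adjusted p = 0.01055), with a pseudocount of 0.1 (adjusted p = 0.01004, limma), without tumor 319 and without any 1 lung, that of Foxa2 without tumor 312 or any 1 lung (when Insm1 and Prox1 missed the count filter), and that of Insm1 without tumor 312 or with a pseudocount of 0.1. In a test against 2-fold itself those of Nkx2-1, Insm1 and Foxa1 were lost (adjusted p = 0.01926, 0.01827 and 0.05946, limma).

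Growth as an allograft was compared with culture within each line. In 46LCNEC, Foxa2 and Prox1 fell, 2 of 5 tested members, while 8.45% of all genes tested were lower in allografts and 14.4% higher. Foxa2 fell by 7.26 ± 1.08 (SE, n = 3 and 3, adjusted p = 1.35e-03, limma) from a mean of 3999 ± 456 normalized counts (SD, n = 3) to 61.1 ± 85.4. Prox1 fell by 4.87 ± 0.29 (adjusted p = 2.492e-05, limma), from 230.1 ± 25.4 to 7.04 ± 1.97. Nkx2-1 had a difference of −4.75 ± 1.52 (adjusted p = 0.03327, limma), so it was not called, although every tumor, at 5.30 to 761 normalized counts, was below every dish, at 2244 to 2883. Without tumor 312 it passed, at −2.81 (adjusted p = 9.32e-03, limma), and without tumor 321 as well, at −6.27 (adjusted p = 6.563e-03, limma). Foxa1, at −0.26 (adjusted p = 0.3629, limma), and Nfib, at −0.21, did not pass, and Insm1 was under the count filter.

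An allograft holds host cells beside the injected ones, and in bulk RNA fewer cells of a type and less RNA per cell cannot be told apart. Markers of host cell types rose with the change of setting. In the 46LCNEC allografts against 46LCNEC_cell, all 5 blood endothelial, all 5 fibroblast, 3 of 3 tested lymphatic endothelial and 3 of 4 tested leukocyte markers were higher. Among all genes tested, 14.4% were higher in that comparison. The summed blood endothelial markers went from 371–454 to 5070–8793 normalized counts, and the summed leukocyte markers from 349–406 to 7372–12339. The summed fibroblast markers were already 67855–78009 in 46LCNEC_cell, and were 666389, 399596 and 297715 in tumors 312, 319 and 321. Tumor 312, with the highest sum, had the least Nkx2-1. Foxa2 was lowest in tumor 319, at 4.2 normalized counts, and Prox1 was highest in tumor 312, at 9.3. Foxa1 and Nfib, measured in the same tumors, stayed at 678 to 1202 and at 8144 to 10205 normalized counts. The part of host cells in the fall of Foxa2 and Prox1 was not tested.

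In 57SCLC, Foxa1 was the member that fell, 1 of 6 tested, by 1.05 ± 0.15 (SE, n = 3 and 3, adjusted p = 7.028e-04, limma), in a comparison where 2.29% of genes were lower and 14.4% higher. Its mean went from 10734 ± 2125 to 5130 ± 259 normalized counts (SD, n = 3). The value lies at the 2-fold limit: without flask A it was −0.93 and without flask B −0.99, both under it, and a test against 2-fold itself gave an adjusted p of 1.0 (limma). Insm1, at −0.65 (adjusted p = 0.0366, limma), Foxa2, at −0.57 (adjusted p = 8.645e-03, limma), Prox1, at −0.44 (adjusted p = 0.0327, limma), Nkx2-1, at −0.31 (adjusted p = 0.07888, limma), and Nfib, at 0.09, were not called. Host markers rose here too: all 5 fibroblast markers were higher, and their sum went from 22.4–27.8 to 30593–48039 normalized counts.

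**Figure D3:**
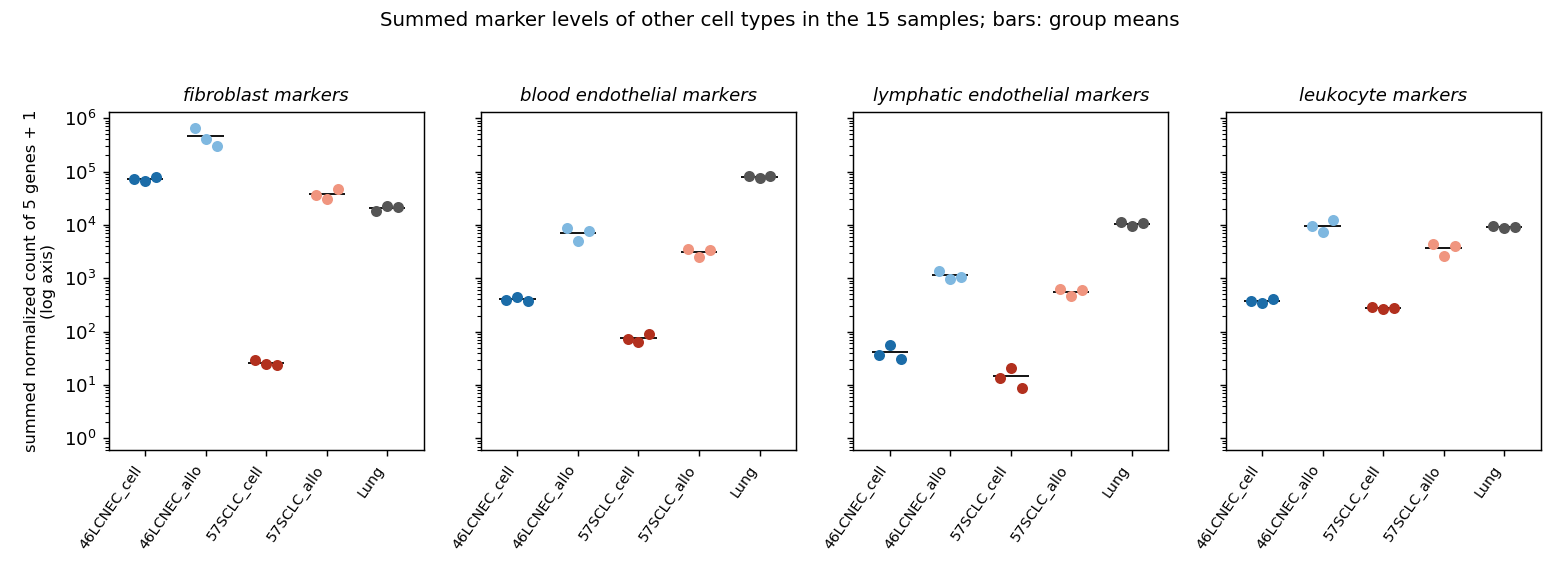
Summed normalized counts of 5 marker genes each for fibroblasts, blood endothelium, lymphatic endothelium and leukocytes in the 15 samples, plus 1, on a log axis, with 1 point for each sample and a line at the group mean. The sums are higher in allografts than in cells of both lines, and the fibroblast sum is high in 46LCNEC_cell before grafting and highest in tumor 312.

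Whether the lines differed in their response to grafting was tested by an interaction term over 12 samples, the difference of 57SCLC from 46LCNEC in allografts minus the same difference in cells. Foxa2, with 6.69 ± 1.201 (SE, n = 3 in each of the 4 groups, adjusted p = 1.149e-03, limma), and Prox1, with 4.42 ± 0.25 (adjusted p = 1.461e-07, limma), passed, 2 of 6 tested, where 10.8% of all genes were higher and 6.78% lower by this term. Both had lost most of their level in 46LCNEC allografts and kept their level within 2-fold in 57SCLC allografts. The term for Nkx2-1 was 4.45 ± 1.70 (adjusted p = 0.05762, limma) and passed without tumor 312 (2.51, adjusted p = 7.825e-03, limma) or tumor 321 (5.97, adjusted p = 3.009e-03, limma). Foxa1, at −0.79 (adjusted p = 0.04797, limma), Insm1, at 0.65 (adjusted p = 0.5681, limma), and Nfib, at 0.30, did not pass.

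Prox1 also marks lymphatic endothelium, so those markers were read beside it. Their sum, with Ccl21a listed at 0 throughout, was 29.2–55.2 normalized counts in 46LCNEC_cell, 964–1384 in the 46LCNEC allografts and 9661–11142 in Lung. Prox1 was at 5.5 to 9.3 in the 46LCNEC allografts and at 158 to 211.5 in Lung. In 57SCLC_cell the markers summed to 7.8–19.9 while Prox1 was at 8833 to 11086, so the high Prox1 of that line was measured with those markers near 0.

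Transcripts overlapping or beside the members were counted as genes of their own. Gm26973, a non-coding RNA on the strand opposite Nkx2-1, stood at 560 to 873 normalized counts in 57SCLC_cell, at 72.2 to 80.7 in 46LCNEC_cell, at 1.3, 5.3 and 38.7 in the 46LCNEC allografts 312, 319 and 321, and at 301 to 347 in Lung. Prox1os, opposite Prox1, was at 702 to 721 in 57SCLC_cell, at 616 to 738 in the 57SCLC allografts and at 0 reads in all 3 46LCNEC allografts. The strand setting of the read counting was not given in the sources used here, so reads of a gene and of its antisense partner cannot be told apart. Exons of other listed genes cover 3.62% of the exon bases of Nkx2-1, 10.88% of those of Prox1 and none of those of Insm1, Foxa1, Foxa2 and Nfib.

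The genes whose patterns over the 15 samples lay closest to a member were found by the root mean square difference of centred log2 values, and the closest ones to Nkx2-1 and Foxa2 were their neighbours on the chromosome. Sfta3-ps, a non-coding RNA 2226 bases from Nkx2-1 on the same strand, differed from it by 0.61, before Tox3 and Fam241b with 1.00 each. It stood at 1330 to 1490 normalized counts in 46LCNEC_cell and at 1.3, 37.9 and 305 in the allografts 312, 319 and 321, the order that Nkx2-1 had there. 9030622O22Rik, a non-coding RNA 2227 bases from Foxa2 on the same strand, differed from it by 0.66, before Kif1a with 0.89 and Wasf3 with 0.91. It fell from a mean of 1015 in 46LCNEC_cell to 7.07 in the allografts, by 7.65 ± 0.91 (n = 3 and 3, adjusted p = 5.058e-04, limma). Calca, which encodes calcitonin and the peptide CGRP, was the closest gene to Insm1 at 0.81. Prox1 was followed by Slc29a4 at 0.77, Ptprt and Ybx2, and Foxa1 by Megf9 at 0.26, Sdr39u1 and Grhl1. Nfib, which varied least of these members, was followed by Isca2, Gm26533 and Tlk1 at 0.15. These distances are descriptions over 15 samples that share their groups.

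Other lineage factors were read from lists chosen with earlier results known. Of 23 further neuroendocrine and neuronal factors, 9 were tested between the lines in culture, with a median difference of 4.77 beside 3e-04 for all genes. Beside 23.9% higher and 22.2% lower over all genes tested, 7 of the 9 were higher and 2 lower in 57SCLC_cell. They were led by the Myt1 family: St18 was higher by 11.06 ± 0.23 (adjusted p = 7.993e-09, limma), Myt1 by 10.22 ± 0.18 (adjusted p = 4.695e-09, limma) and Myt1l by 7.69 ± 0.55 (adjusted p = 4.62e-06, limma), followed by the neuronal repressor Scrt1 with 6.57 ± 0.33 (adjusted p = 5.695e-07, limma). Between the allografts 8 of 10 tested were higher and none lower, beside 16.1% higher and 14.2% lower over all genes tested. In grafted against cultured 46LCNEC, 6 factors of that list were tested, and 1 was higher and 2 were lower. Over all genes tested, 14.4% were higher and 8.45% lower. The higher factor was St18, by 5.21 ± 1.04 (n = 3 and 3, adjusted p = 4.984e-03, limma). It stood at 26.3, 181.5 and 649.4 normalized counts in tumors 319, 312 and 321, and at 1.9 to 4.4 in culture. Against Lung, 7 of 7 tested factors were higher in 57SCLC_cell and 8 of 9 in its allografts, beside 21.1% and 18.9% of all genes tested. In 46LCNEC_cell none of 6 was higher and 2 were lower, beside 20.6% higher and 35.0% lower over all genes tested.

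The 5 repressors and antagonists of neuroendocrine fate ran the other way in part. Rest, which silences neuronal genes outside neurons, was at 1947, 1878 and 1874 normalized counts in 46LCNEC_cell and at 6.5, 9.0 and 5.7 in 57SCLC_cell, a difference of −7.89 ± 0.18 (n = 3 and 3, adjusted p = 1.294e-08, limma). Wwtr1 (TAZ), a Hippo pathway coactivator, was at 7533, 7034 and 6829 against 1.6, 0 and 1.6, and Yap1, its partner, at 5484 to 6321 against 344 to 616. Hey1, a Notch target, was the one that was higher, by 6.31 ± 0.15 (adjusted p = 1.674e-08, limma). All 5 were lower than in Lung in both 57SCLC groups, beside 32.7% of all genes tested in cells and 26.9% in allografts. In the 57SCLC allografts Rest rose to 160–255 and Wwtr1 to 525–688, together with the fibroblast marker sums given above, and the part of host cells in this was not tested. In the 46LCNEC allografts Hey1 rose from 10.8–13.2 to 725.8, 1265.1 and 788.8, by 6.14 ± 0.27 (n = 3 and 3, adjusted p = 7.83e-06, limma). The blood endothelial marker sums rose in the same tumors, from 371–454 to 5070–8793 normalized counts, and Lung, where they were 74341–84151, had 3028 to 3899 of Hey1. Their part in the rise of Hey1 was not tested.

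**Figure D4:**
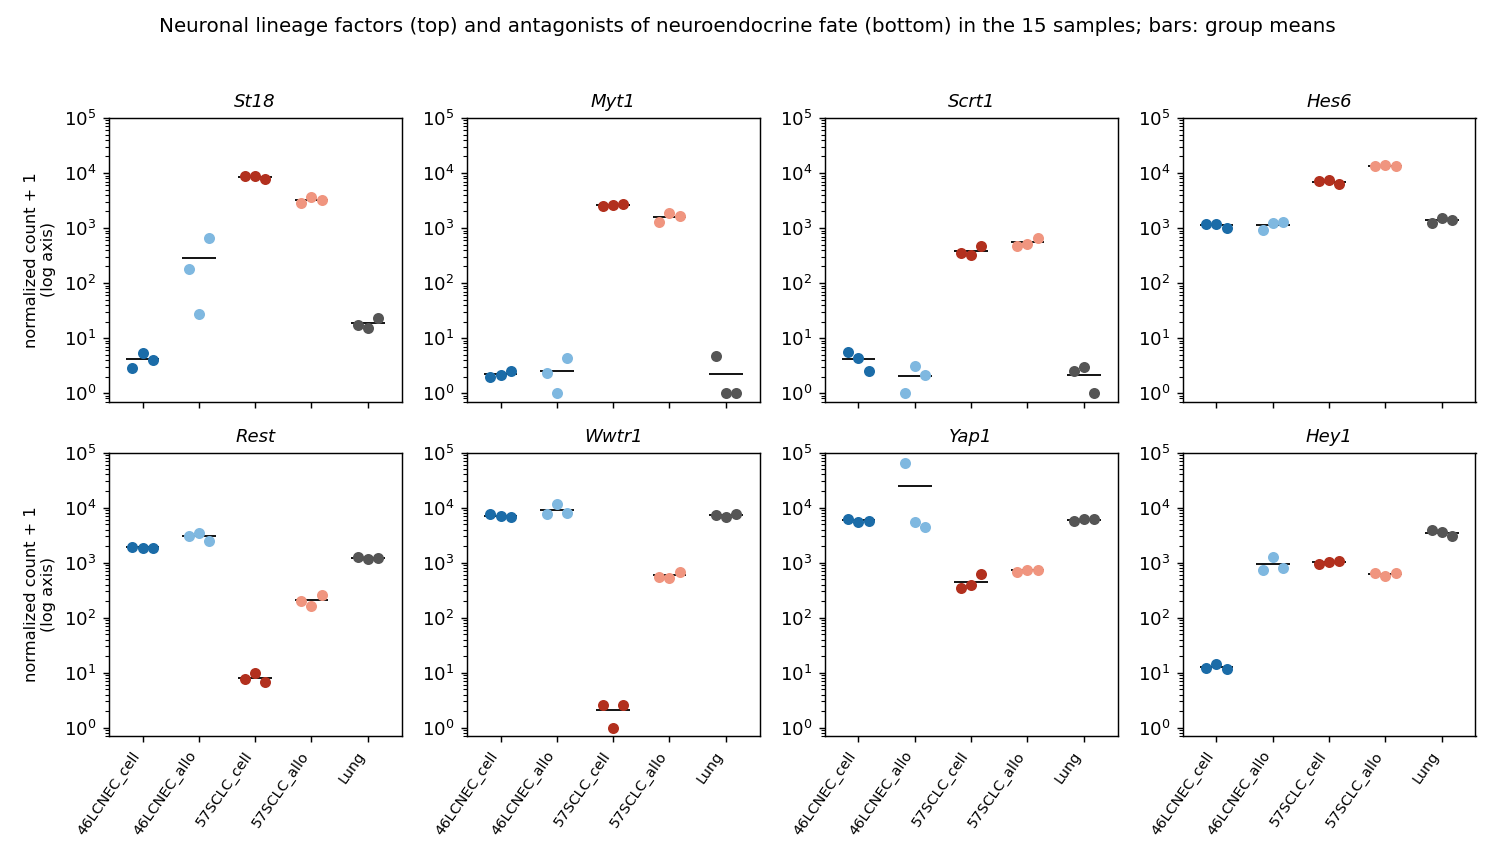
Normalized counts of 8 further factors plus 1 in the 15 samples on a log axis, with 1 point for each sample and a line at the group mean: St18, Myt1, Scrt1 and Hes6, which act in neuroendocrine and neuronal cells, and Rest, Wwtr1, Yap1 and Hey1, which repress or oppose that fate. Rest and Wwtr1 are at 9.0 or less in 57SCLC_cell and at 160 or more in its allografts, and Hey1 is lowest in 46LCNEC_cell, at 10.8 to 13.2.

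Genes for products of neuroendocrine cells were read next, and whether the members act on them was not tested. All 12 neuroendocrine product genes were listed. Of 11 tested, 10 were higher in 57SCLC_cell than in 46LCNEC_cell and 1 lower, beside 23.9% and 22.2% of all genes tested. Calca, at a mean of 3.97 in 46LCNEC_cell, passed the count filter through 57SCLC_cell. Calca led with 13.03 ± 0.35 (n = 3 and 3, adjusted p = 2.451e-08, limma), and the lower one was the adhesion molecule gene Ncam1, with 28614 to 31510 normalized counts in 46LCNEC_cell against 4291 to 6449. In both 57SCLC groups 11 of 11 tested were higher than in Lung, beside 21.1% of all genes tested in cells and 18.9% in allografts. In 46LCNEC_cell only Ncam1, with 8.60 ± 0.08, and the ubiquitin hydrolase gene Uchl1, with 2.66, were higher than in Lung, and 5 of 8 tested were lower. Over all genes tested, 20.6% were higher and 35.0% lower there. So, by RNA, the line labelled LCNEC had 2 of these product genes above Lung and Insm1 at a few reads. Protein was not measured here. The authors reported NCAM, SSTR2 and CGRP staining in the cell lines, with NCAM shown in LCNEC cells. In the subcutaneous tumors they reported chromogranin A, CGRP or TTF-1 staining, with chromogranin A shown in LCNEC allografts. CGRP is encoded by Calca, at a mean of 3.97 normalized counts in 46LCNEC_cell and 2.95 in 46LCNEC_allo. TTF-1 is the protein of Nkx2-1, at 5.30 to 761 in the 46LCNEC allografts. How staining relates to RNA in these samples was not tested. In the 46LCNEC allografts against 46LCNEC_cell, RNA of Ncam1 fell by 2.73 ± 0.29, Uchl1 by 3.45 ± 0.41 and Snap25, a synaptic vesicle fusion protein gene, by 4.41 ± 0.51 (n = 3 and 3).

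The 11 alveolar and airway genes that Nkx2-1 and Foxa2 drive in lung epithelium were lower than in Lung in all 4 tumor groups, 11 of 11 each time. The share of all genes tested that was lower lay between 22.1% and 35.0%. The medians of the list lay between −13.34 and −12.32, beside −0.2261 to −0.0867 for all genes. Sftpc, the surfactant gene of alveolar type 2 cells, was at 58062 to 85865 normalized counts in Lung and at 2.1 to 22.6 in all tumor samples. That held in 57SCLC_cell, where Nkx2-1, Foxa1 and Foxa2 themselves were above Lung in bulk RNA. Lung is a mixed tissue, with summed blood endothelial markers of 74341–84151 normalized counts against 63.3–88.6 in 57SCLC_cell. Levels per epithelial cell were therefore not compared.

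Of the other endoderm and lung factors, 11 of 16 were tested between the lines in culture, with 5 higher and 4 lower in 57SCLC_cell. Over all genes tested, 23.9% were higher and 22.2% lower. Sox9, a factor of distal lung progenitors, was at 1967 to 2224 normalized counts in 46LCNEC_cell against 0 to 0.6, Gata6 at 400 to 473 against 0.5 to 3.1, and Ehf, an epithelial ETS factor, at 2.3 to 3.8 against 1512 to 1541. Among 14 paralogs of the members, 2 were higher and 3 lower of 7 tested: Pou2f2, the lymphoid relative of Pou2f3, was higher by 6.29 ± 0.18 (adjusted p = 3.432e-08, limma) and Insm2 by 4.39 ± 0.50 (adjusted p = 7.606e-05, limma), while Nfia, at −4.19 ± 0.25, and Nfix, at −2.23 ± 0.10, were lower (n = 3 and 3). The nuclear factor I genes therefore did not move as one, since Nfib did not pass in any comparison. Pou2f2 rose in grafted 46LCNEC by 6.09 ± 0.55 (adjusted p = 1.583e-04, limma), beside the leukocyte marker sums given above, whose part in it was not tested.

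Of 11 tuft cell genes, 6 were tested between the lines in culture, and 5 were lower in 57SCLC_cell and none higher. The shares over all genes tested were 22.2% lower and 23.9% higher. Ptgs1, a prostaglandin synthase gene, stood at 1755 to 1821 normalized counts in 46LCNEC_cell against 4.7 to 8.7, Dclk1 at 1957 to 2171 against 116 to 155, and Avil at 471 to 555 against 41 to 42. The list did not run 1 way, as low genes that were not tested show. Chat stood at 0 to 1.1 in 46LCNEC_cell against 7.8 to 19.3 in 57SCLC_cell, and Il25 at 0 against 1.8 to 4.2. Ascl2, Gfi1b and Bmx, also not tested, overlapped between the lines. Of the 11 genes, 7 were detected in 46LCNEC_cell and 10 in 57SCLC_cell. Against Lung, 46LCNEC_cell had 4 of 8 tested higher and 2 lower, beside 20.6% higher and 35.0% lower over all genes tested. Pou2f3 in these same dishes was at 6.6, 12.1 and 13.8 normalized counts, within the 5.0 to 16.4 of the lungs.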

How the data were processed

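Poly-A selected RNA of 15 samples was sequenced in paired ends. Alignment by the authors was to GRCm39, with Rbowtie2. Their counts, from featureCounts and GENCODE release 27, were scaled by DESeq2 size factors, so the deposited unit is a signal, a normalized count. In each sample every value was a whole multiple of 1 step within a tolerance of 0.01, and whole reads were recovered. Values at or under 3 reads were taken as not detected, and such floors cover counting error only.

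Groups came from the labels. Each pair of groups was compared with limma 3.58.1 in R 4.3.3, with a mean-variance trend, on log2(normalized count + 1), over genes that reached 10 normalized counts in 3 or more of its 6 samples. Adjusted p-values are Benjamini-Hochberg over all genes tested, and calls needed an adjusted p of at most 0.01 and at least 2-fold. edgeR 4.0.16 and DESeq2 1.42.0 were run on the recovered reads as alternatives, beside other pseudocounts, scalings, filters and samples left out. Where nothing says that samples of a group came from separate cultures or animals, p-values measure the spread between these samples only, which may be technical. The members and the other gene lists were chosen with earlier results of these data known. Named genes were all 9 members, at most 4 called genes of each list with the largest differences, genes overlapping a member, and up to 3 genes nearest to a member in pattern. Genes named for other reasons, or beyond those 4, were chosen after their values were seen. Of the identifiers, 98.9% matched GENCODE release 39, used for coordinates and exon lengths. Results for some genes are not reported here. Python 3.11.15 was used, and the fits were tested on simulated data.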

Additional observations from a re-analysis of the deposited data

Results flagged for a closer look

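The response to grafting differed between the lines for 2 members, by the interaction term of limma over 12 samples. For Foxa2 the term was 6.69 on the log2 scale (adjusted p = 1.149e-03), as its mean went from 3999 to 61.1 normalized counts in 46LCNEC and from 13115 to 8786 in 57SCLC. The term for Prox1 was 4.42 (adjusted p = 1.461e-07), with means of 230.1 and 7.04 in 46LCNEC and of 10257 and 7556 in 57SCLC. In both cases every 46LCNEC allograft was below every 46LCNEC dish.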

How the results depend on the processing

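The fit with the culture letters A, B and C as a replicate block called 5 members between the lines in culture, as without it. Same-letter samples had correlated deviations of 0.092, −0.084 and −0.006, so they share a letter only.

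The members called in the 9 comparisons kept within 1.5 times of the reported count in 141 alternatives. With a test against 2-fold itself, 1 member was called in 46LCNEC_cell over Lung, 2 in 46LCNEC_allo over Lung and 0 in 57SCLC_allo over 57SCLC_cell. With all 15 samples in 1 model 3 were called in 57SCLC_cell over Lung, with a pseudocount of 0.1 there were 3 in 46LCNEC_allo over Lung, with library size as the only scaling 5 in 57SCLC_allo over Lung, and with DESeq2 1 in the interaction, where Foxa2 had no adjusted p. Leaving out 1 sample gave 2 to 5 members in 57SCLC_allo over 46LCNEC_allo, 1 to 5 in 46LCNEC_allo over Lung, 1 to 3 in 46LCNEC_allo over 46LCNEC_cell and 0 to 1 in 57SCLC_allo over 57SCLC_cell. The lowest counts of the first 3 arose where a 57SCLC allograft, a lung or a 46LCNEC dish was left out: Insm1 and Prox1, or Prox1 alone in the last case, then missed the filter of 3 samples, and Nkx2-1 in the first case and Nkx2-1 and Foxa2 in the second were tested and lost their calls.

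Some small differences changed sign. They were those of Nfib between the lines in culture (−0.0659 without flask C of 57SCLC_cell), in 57SCLC_allo over Lung (0.054, library size only) and over 57SCLC_cell (−0.0359 with upper quartile scaling, −0.0037 without flask B), of Pou2f3 in 46LCNEC_cell over Lung (−0.2098 without lung CT4) and of Insm1 in the interaction (−0.0393, pseudocount 5). With 1 sample left out at a time, the differences of Nfib ran from −0.0659 to 0.1703 between the lines in culture and from −0.0037 to 0.2326 in 57SCLC_allo over 57SCLC_cell, and that of Pou2f3 from −0.2098 to 0.4638. Elsewhere 33 single differences lost and 13 gained a call, and the level of Nfib per kb moved in all 5 groups with the longest transcript as length.

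Over all genes, the test against 2-fold called 2861 genes in 57SCLC_allo over 46LCNEC_allo in place of 5312, 3451 in place of 6412 in 46LCNEC_allo over Lung, 1414 in place of 3738 in 46LCNEC_allo over 46LCNEC_cell, 1700 in place of 2842 in 57SCLC_allo over 57SCLC_cell and 1293 in place of 3233 in the interaction. In these comparisons, without 1 of the 57SCLC allografts 3307 to 3506 genes were called over 46LCNEC_allo and 1204 to 1522 over 57SCLC_cell, without 1 lung 4045 to 4078, and without dish B or C of 46LCNEC_cell 2454 and 2328. Scaling by library size moved the median difference of all genes by 0.2118 to 0.2691 in the 4 comparisons of a 57SCLC group with 46LCNEC or Lung, upper quartile scaling by 0.209 in 46LCNEC_cell over Lung. Depth limits Insm1 and Prox1 in the 46LCNEC allografts, and Pou2f3 everywhere, where a few reads carry each value.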

Other observations

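The 46LCNEC allograft 312 stood apart on part of chromosome 9. It held 64200 normalized counts of Yap1, against 5426 in tumor 319, 4464 in tumor 321 and 5484 to 6321 in 46LCNEC_cell. Of the 19 protein-coding genes from Aasdhppt (chr9:4286456-4309801, GRCm39) to Arhgap42 (chr9:8992510-9239368) that had a mean of at least 50 normalized counts in the other two tumors, 18 were at least 2-fold higher in tumor 312, with a median ratio of 8.75. Among all 11988 protein-coding genes with that mean, 1.61% were at least 2-fold higher there. Birc2 and Birc3, which encode inhibitors of apoptosis, stood at 10591 and 10975 normalized counts in tumor 312, against 1224 to 1398 and 1415 to 1787 in the other tumors, and Dcun1d5, a gene of cullin neddylation, at 15866 against 1262 to 1476. The next 6 genes with that mean, from Jrkl (chr9:13242612-13245834) on, had ratios of 0.587 to 1.09. This region was picked once its values were known, and each value comes from 1 tumor. Tumor 312 was also the one with the least Nkx2-1, at 4 reads, and the highest fibroblast marker sum. Foxa2 was lowest in tumor 319, also at 4 reads.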
